A study of Mus musculus with 8 samples.

Results

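Kcne1l, Chrnb4 and Smoc1 are 3 of the 55367 genes counted in whole mouse kidneys with and without the transcription factor c-Maf. They were chosen by their own counts, for a rise in the kidneys labelled Maf conditional KO over those labelled Maf flox/flox, so their difference between these genotypes is given as a description, and no test of it supports a statement here. The kidneys came from C57BL/6J mice labelled as 8 weeks old after birth, and RNA depleted of ribosomal RNA was sequenced from 4 mice of each genotype. The Maf conditional KO mice carried c-Maf fl/fl alleles and CAG-Cre-ER^TM, a Cre recombinase under the ubiquitous CAG promoter that tamoxifen (TAM) activates, so the deletion was not limited to a kidney cell type. The Maf flox/flox controls carried the same floxed alleles without the Cre. They also received TAM. Counts assigned to genes ranged from 16649129 to 22990257 per mouse.

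Kcne1l, also known as Kcne5, encodes a small accessory subunit of voltage-gated potassium channels, one of the KCNE proteins that change how pore-forming subunits such as Kcnq1 open. Chrnb4 encodes the beta4 subunit of nicotinic acetylcholine receptors, which are channels opened by acetylcholine, and in autonomic neurons it assembles with the alpha3 subunit. Smoc1 encodes a secreted calcium-binding matrix protein of the SPARC family that modulates signalling by bone morphogenetic proteins (BMPs).

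Maf, the gene deleted, was measured first in every mouse. In CPM (counts scaled to a common library size, with edgeR's TMM factors), it stood at 9.06, 34.5, 29.6 and 10.1 in Maf conditional KO mice 1 to 4, and at 379.9, 342, 305 and 351 in Maf flox/flox mice 1 to 4. Each library matched its label. The log2 fold change of Maf was −4.05 (SE 0.51; adjusted p = 0.0115, edgeR quasi-likelihood test with Benjamini-Hochberg adjustment over all genes tested), and it was lower in 4 of 4 mutant mice. With only the 5 mice of high Xist (below), its adjusted p was 0.108 and its log2 fold change −3.87. With the replicate number as a block they were 0.0516 and −4.28 (edgeR quasi-likelihood for both). Gm15655, on the opposite strand, shares 5.34% of the exonic bases of Maf, and the counting did not use strand.

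The libraries also differed in ways the genotype labels do not give. Xist, the RNA that coats an inactive X chromosome, had 2 counts in Maf conditional KO mouse 1 and 6 and 22 counts in Maf flox/flox mice 3 and 4, where genes of the Y chromosome were expressed (Ddx3y at 773, 917 and 778 counts). In the other 5 mice Xist had 17618 to 22387 counts and Ddx3y at most 7. The labels give no sex. Maf conditional KO mouse 1 also had the highest share of mitochondrial counts, 32.3%, against 17.1% to 25.5% in the other 7 mice. It was the only mutant mouse with low Xist, so within the mutants these properties cannot be told apart.

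Kcne1l had 29, 66, 94 and 146 counts in Maf conditional KO mice 1 to 4, which is 1.48, 3.39, 5.21 and 7.91 CPM. In Maf flox/flox mice 1 to 4 it had 17, 12, 8 and 12 counts, or 0.834, 0.542, 0.406 and 0.704 CPM. All mutant mice were above all controls, and the mutants were widely spread, with mouse 1 lowest and mouse 4 highest. The means were 4.50 ± 2.74 CPM in mutants and 0.621 ± 0.187 CPM in controls (SD, n = 4 each), a log2 fold change of 2.84 (SE 0.49). The highest mutant value was 5.36 times the lowest, and the lowest mutant value was 1.77 times the highest control value.

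Chrnb4 was counted 64, 45, 41 and 28 times in Maf conditional KO mice 1 to 4, or 3.26, 2.31, 2.27 and 1.52 CPM. The Maf flox/flox mice had 8, 4, 8 and 10 counts, or 0.392, 0.181, 0.406 and 0.586 CPM. The genotypes again lay apart, but here mutant mouse 1 was highest and mouse 4 lowest, the opposite of their order for Kcne1l. Mean levels were 2.34 ± 0.713 CPM in mutants and 0.391 ± 0.166 CPM in controls (SD, n = 4 each), a log2 fold change of 2.59 (SE 0.37). With 30 counts in the 4 controls together, the control level rests on few reads.

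Smoc1 reached 195, 86, 70 and 172 counts in Maf conditional KO mice 1 to 4, or 9.92, 4.42, 3.88 and 9.31 CPM. Its counts in Maf flox/flox mice 1 to 4 were 11, 37, 33 and 13, or 0.540, 1.67, 1.67 and 0.762 CPM. Mutant mice 1 and 4 were high and mice 2 and 3 lower, while among controls mice 2 and 3 stood above mice 1 and 4, and no control reached any mutant. The means were 6.88 ± 3.17 CPM and 1.16 ± 0.597 CPM (SD, n = 4 each), a log2 fold change of 2.55 (SE 0.43). In a whole kidney, more cells that express a gene and more RNA per cell cannot be told apart.

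**Figure D1:**
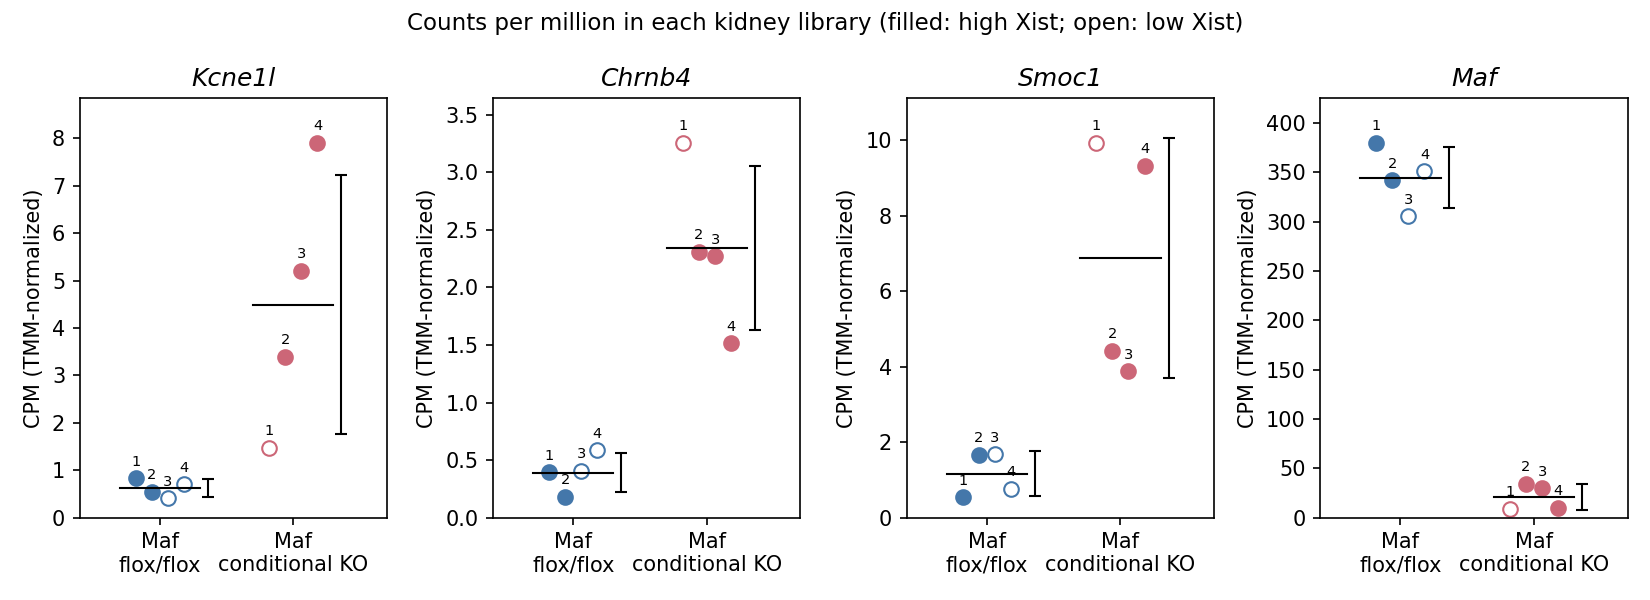
CPM of Kcne1l, Chrnb4, Smoc1 and Maf in each mouse (numbered points; vertical axes start at 0), with the group mean as a line and the SD as a bar beside it; filled points are libraries with high Xist and open points those with low Xist. The 4 mutant mice lie above the 4 controls for Kcne1l, Chrnb4 and Smoc1 and below them for Maf, and mutant mouse 1 is lowest for Kcne1l but highest for Chrnb4 and Smoc1.

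Per kilobase of exon, the scale on which genes can be compared, all 3 were low in controls. Kcne1l stood at 0.403 CPM per kb, Smoc1 at 0.332 and Chrnb4 at 0.105, above 10.4%, 8.03% and 1.04% of the 20149 genes tested. In mutant kidneys they stood at 2.91, 1.97 and 0.628 CPM per kb, above 48.4%, 39.0% and 15.7% of the genes tested. The order Kcne1l, Smoc1, Chrnb4 was the same in both genotypes, though Kcne1l and Smoc1 were closer to each other than their spread among mice.

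Across the table, 118 genes were higher in Maf conditional KO kidneys at an adjusted p under 0.05, which is 0.586% of the genes tested, and 318 were lower, or 1.58%. Together they made 436 genes, or 2.16%. Mutants lay wholly above controls for 840 genes, or 4.17%. Kcne1l, Chrnb4 and Smoc1 are among both sets of higher genes, which is how they were picked, and nothing is read from that. Ordered by log2 fold change among the 110 of these higher genes (called, below, means an adjusted p under 0.05) with a mean of at least 1 CPM and mutants wholly above controls, they came at ranks 2, 3 and 4. Just before them stood Saa4, a serum amyloid A gene, at 5.03 (SE 0.95), with 127, 32, 47 and 35 counts in mutants and 0, 0, 0 and 7 in controls. The place of Saa4 is not stable: with 1 mouse left out its log2 fold change ranged from 4.41 to 8.96, and it was not called without mutant mouse 2 or 3 or control mouse 1, 2 or 3 (adjusted p 0.0529 to 0.0986, edgeR quasi-likelihood). Just after them stood Mbl1, a mannose-binding lectin of the complement system, at 2.28 (SE 0.37).

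With the mice of low Xist set aside, leaving 3 mutants and 2 controls, the log2 fold changes were 2.99 for Kcne1l, 2.81 for Chrnb4 and 2.39 for Smoc1. Mutant mouse 1 alone had 1.48 CPM of Kcne1l, against a mean of 5.50 ± 2.27 CPM in the 3 mutants with high Xist (SD, n = 3).

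The other genes of each gene's own family and pathway were counted next, from 10 lists that hold 123 genes of the table, 77 of them tested. By the same edgeR test, 2 were called higher and 1 lower, 3.90% of the tested genes of these lists against 2.16% of all genes. The median log2 fold change of the lists together was 0.047, against 0.003 for all tested genes. No list was tested as a whole.

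Of the other KCNE subunits, Kcne1 and Kcne4 were tested and neither was called. Kcne1, the partner of Kcnq1 in slow potassium currents, had a mean of 14.2 ± 4.68 CPM in mutants and 13.6 ± 1.31 CPM in controls, and Kcne4 had 4.18 ± 1.99 and 3.28 ± 1.07 CPM (SD, n = 4 each). DESeq2, edgeR's exact test and limma-trend called 0 of the 2 as well, and 0 had an unadjusted p under 0.05. Per kb of exon, Kcne1 in mutants stood at 4.43 CPM, above Kcne1l at 2.91, while in controls they stood at 4.23 and 0.403.

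Among the pore-forming subunits, 11 of 23 listed genes were tested, with a median log2 fold change of 0.042. Kcnq1, the subunit with the highest level per kb in the list, had 38.3 ± 5.42 CPM in mutants and 37.2 ± 3.55 CPM in controls (SD, n = 4 each), and its log2 fold change of 0.04 (SE 0.11) was not called.

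The nicotinic receptor list held the largest fall of the 77 genes. Chrna4, the alpha4 subunit that in brain pairs mostly with beta2, had 6.31, 10.2, 11.8 and 5.58 CPM in Maf conditional KO mice 1 to 4. In Maf flox/flox mice 1 to 4 it had 71.9, 77.5, 84.0 and 88.7 CPM. Mutants were far below every control. Its log2 fold change was −3.25 (SE 0.23; adjusted p = 1.13e-04, edgeR quasi-likelihood), and it was called in all 8 fits that left out 1 mouse. Per kb of exon, Chrna4 fell from 16.0 CPM in controls to 1.69 CPM in mutants, while Chrnb4 stood at 0.105 and 0.628 CPM per kb, so Chrna4 was above Chrnb4 in both genotypes.

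Of the remaining nicotinic subunits, Chrna2, Chrna7, Chrnb1 and Chrnb2 were tested and not called. Chrnb1, the beta subunit of muscle receptors, had 5.19 ± 0.455 CPM in mutants and 4.52 ± 0.741 CPM in controls (SD, n = 4 each). The genes of the alpha3 and alpha5 subunits, which lie beside Chrnb4 in a conserved cluster, were nearly absent: Chrna3 had 1 count over all 8 mice, and Chrna5 had 0. Factors of receptor assembly and modulation gave 0 calls among 6 tested genes, with 1 at an unadjusted p under 0.05, and DESeq2, the exact test and limma-trend also called 0. The most abundant of these, Ly6e and Lynx1, which encode proteins of the Ly6 family, had log2 fold changes of 0.11 (SE 0.18) and 0.28 (SE 0.14). Chat, which makes acetylcholine, had 0 counts in every mouse. Of the genes for breakdown of acetylcholine and for muscarinic receptors, 4 were tested and 0 called by any of these 4 tests, with 1 at an unadjusted p under 0.05. Among them, Prima1, which anchors acetylcholinesterase, and Ache, the enzyme itself, had log2 fold changes of −0.05 (SE 0.21) and −0.14 (SE 0.38).

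For Smoc1, none of the 6 tested relatives in the SPARC family was called by the quasi-likelihood test, DESeq2, the exact test or limma-trend, and 1 had an unadjusted p under 0.05. That was Smoc2, the closest relative, with 23.8 ± 4.06 CPM in mutants and 17.7 ± 3.12 CPM in controls (SD, n = 4 each), a difference of 0.43 on the log2 scale (SE 0.15; adjusted p = 0.221, edgeR quasi-likelihood). It was named after its value was seen. Sparc, the most abundant of the family per kb, had a log2 fold change of 0.08 (SE 0.12), and Sparcl1, the next, −0.01 (SE 0.11).

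Of 10 BMP ligand genes and 10 receptor genes tested, 0 were called by these 4 tests, with 1 ligand and 0 receptors at an unadjusted p under 0.05. Bmp6 and Bmp4, the ligands with the highest levels per kb, had log2 fold changes of −0.05 (SE 0.10) and −0.04 (SE 0.12). The receptors Eng and Bmpr1a stood at 0.07 (SE 0.10) and 0.06 (SE 0.08). Among 11 extracellular modulators, 4 had an unadjusted p under 0.05. Fst, which encodes the activin and BMP antagonist follistatin, was the single gene called. It had 7.99, 14.9, 13.6 and 11.8 CPM in mutant mice 1 to 4 and 6.28, 2.44, 3.15 and 3.75 CPM in controls. Mutant mouse 1 was closest to the controls. The log2 fold change of Fst was 1.63 (SE 0.29; adjusted p = 0.0152, edgeR quasi-likelihood). Its adjusted p by the same test was 0.0525 to 0.0620 when mutant mouse 2 or 3 or control mouse 3 or 4 was left out. It was 0.0592 with only the mice of high Xist and 0.155 with the replicate number as a block. The most abundant modulators, Sostdc1 and Twsg1, had log2 fold changes of 0.18 (SE 0.11) and 0.29 (SE 0.11).

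The 12 tested BMP SMADs and target genes had a median log2 fold change of −0.259, with 10 below 0, and 0 were called by the 4 tests, with 2 at an unadjusted p under 0.05. Id3, a target that BMP signalling induces in many cells, had 31.8 ± 10.9 CPM in mutants and 51.8 ± 12.1 CPM in controls (SD, n = 4 each), and Id2 had 123 ± 10.8 and 157 ± 18.4 CPM. Their log2 fold changes of −0.70 (SE 0.28) and −0.35 (SE 0.10) had adjusted p of 0.309 and 0.129 (edgeR quasi-likelihood). With Xist as a covariate, a fit that called 1506 genes across the table in place of 436, Smad7 was called too. In that fit Id3 had an adjusted p of 6.49e-04 and Id2 of 0.0235, at log2 fold changes of −0.91 and −0.28, and with only the mice of high Xist, a fit with 789 calls, Id3 had 0.00898 at −0.77, and Smad7 was called again. The covariate fit also called Bmp7 among the ligands and Chrdl1 among the modulators.

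**Figure D2:**
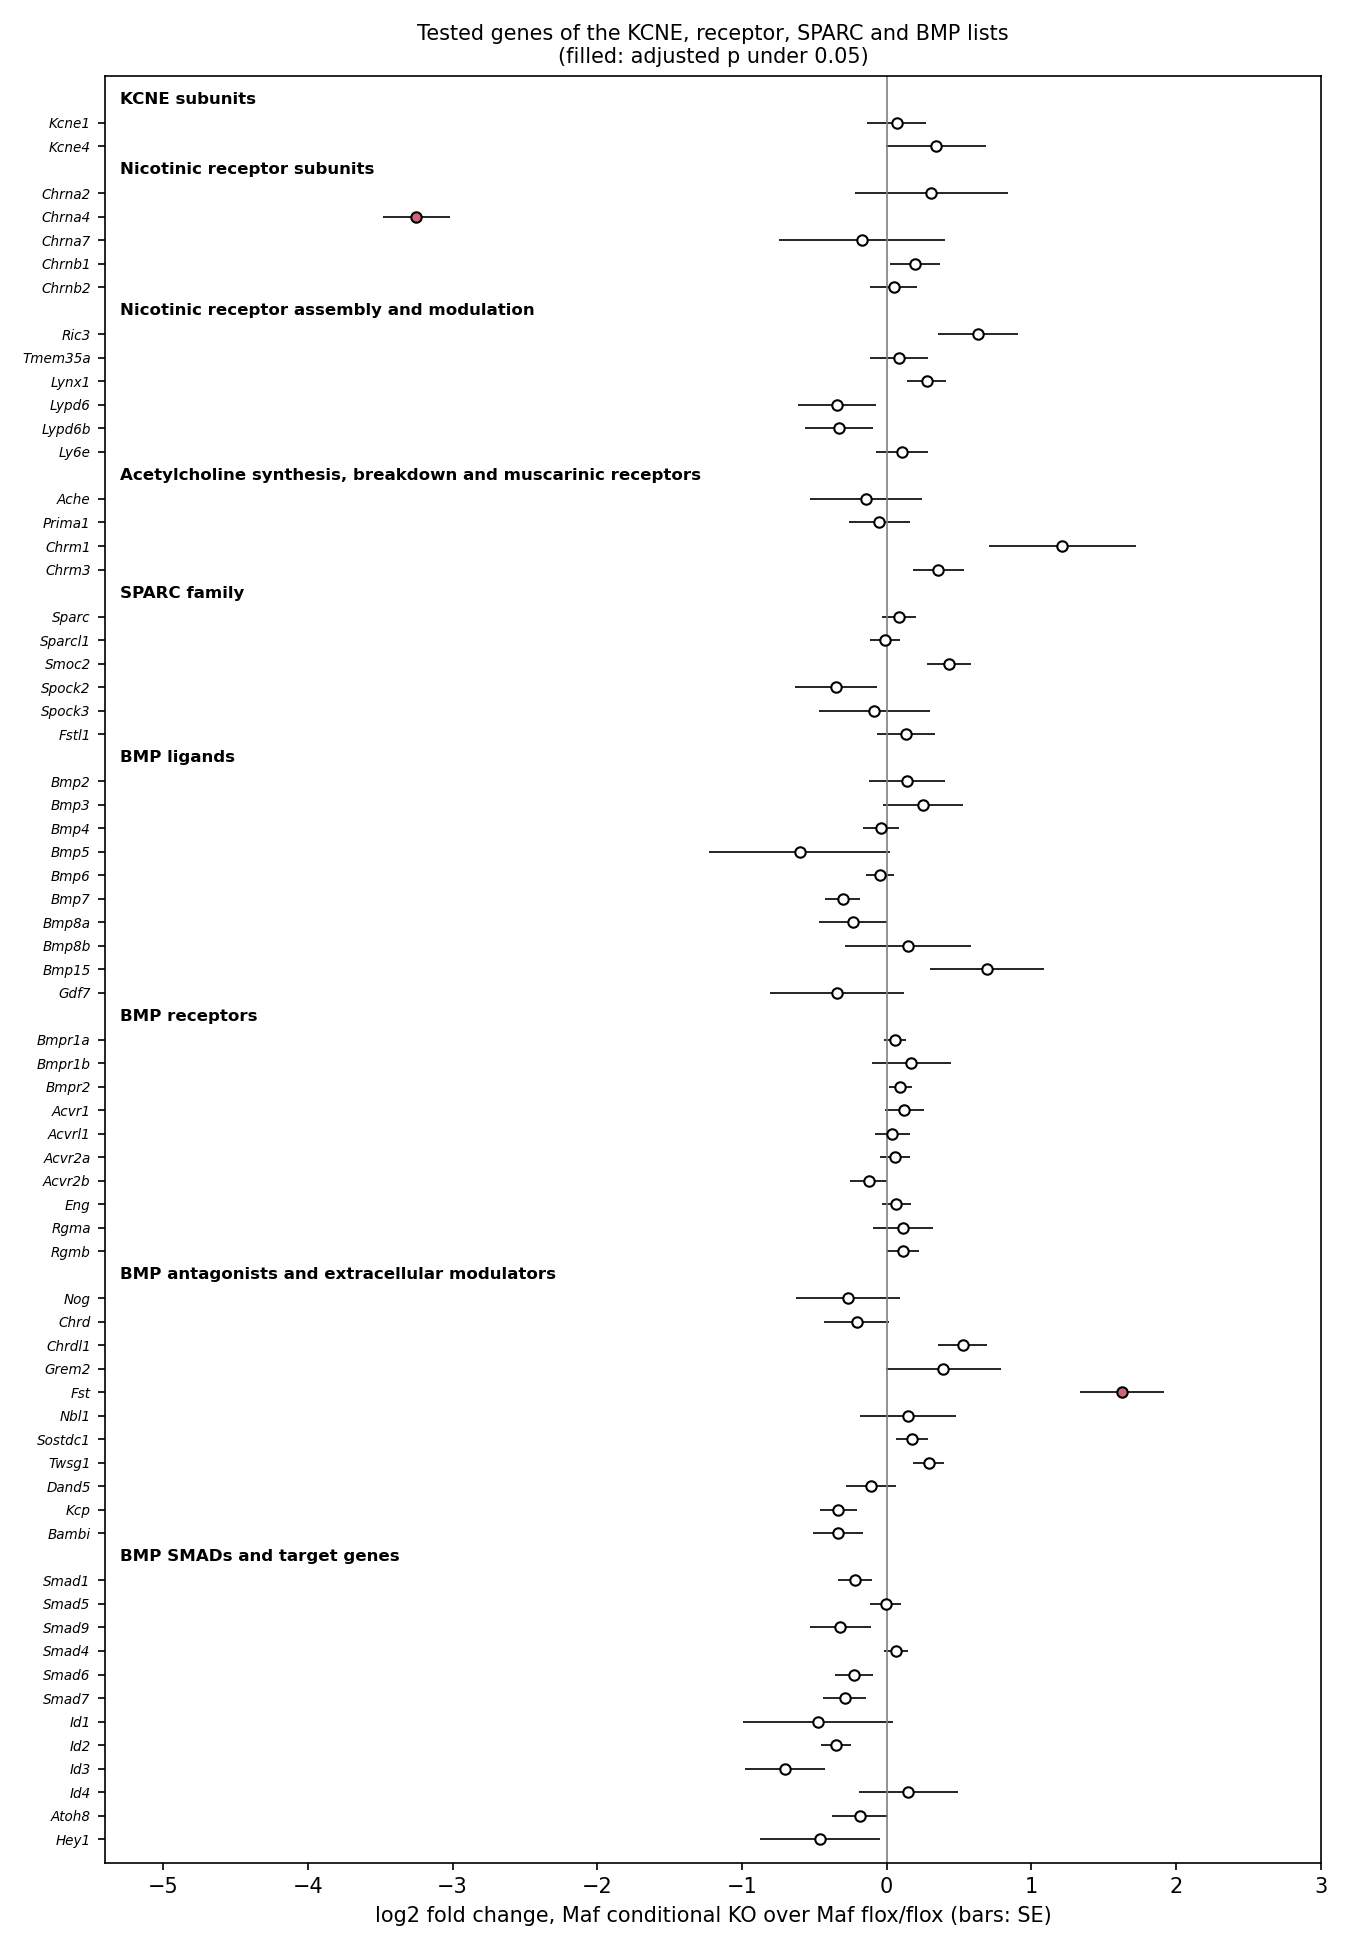
Log2 fold change of Maf conditional KO over Maf flox/flox for the tested genes of the lists, apart from the pore-forming potassium channel subunits (horizontal axis; bars are SE, 4 mice a genotype), grouped by list, with filled points for genes at an adjusted p under 0.05. Fst at 1.63 lies to the right and Chrna4 at −3.25 to the left, and the other genes have open points.

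The chosen genes lie on 3 chromosomes (GRCm38): Kcne1l at chrX:142304752-142306294 on the minus strand as 1 exon, Chrnb4 at chr9:55028154-55048779 on the minus strand with 6 exon blocks, and Smoc1 at chr12:81026808-81186414 on the plus strand with 13. None of them shares exonic bases with another gene. Genes within 500 kb were not used to choose them, so these could be tested.

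Of 8 tested neighbours of Kcne1l, 1 was called, and of the 41 tested over the 3 loci also 1, against 2.16% of all genes. Gucy2f, a guanylate cyclase gene known from photoreceptors, lies 107.8 kb away, and had 15, 38, 17 and 26 counts in Maf conditional KO mice 1 to 4 and 3, 6, 10 and 5 in controls. All mutants were above all controls in CPM. Its log2 fold change was 2.04 (SE 0.45; adjusted p = 0.0383, edgeR quasi-likelihood). That call rests on 120 counts in all: the adjusted p lay between 0.0783 and 0.142 without mutant mouse 2, 3 or 4 or control mouse 1, 2 or 4, each left out alone, and was 0.0525 with limma-trend. Closer by, none of the tested genes was called: Gm5643, 6.22 kb away, had a log2 fold change of −0.44 (SE 0.29), Nxt2, 65.1 kb away, 0.19 (SE 0.10) and Acsl4, 11.7 kb away on the other side, 0.02 (SE 0.11).

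Near Chrnb4, 16 genes were tested and 0 called by the quasi-likelihood test, DESeq2, the exact test or limma-trend, with 1 at an unadjusted p under 0.05. The closest tested genes, Psma4, AY074887 and Hykk, had log2 fold changes of −0.10 (SE 0.15), 0.73 (SE 0.29) and 0.31 (SE 0.35). AY074887 and Psma4 overlap on opposite strands. Hykk, a hydroxylysine kinase gene, was called with Xist as a covariate, at 0.56 (adjusted p = 7.84e-04, edgeR quasi-likelihood). With only the mice of high Xist it was also called, at 0.56 (adjusted p = 0.0116, edgeR quasi-likelihood). Near Smoc1, 17 genes were tested and 0 called by the same 4 tests, with 0 at an unadjusted p under 0.05. Slc10a1, 58.1 kb away, had a log2 fold change of −0.02 (SE 0.29), Srsf5 0.08 (SE 0.10) and Susd6 0.10 (SE 0.09), and the median of the 17 was 0.223.

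**Figure D3:**
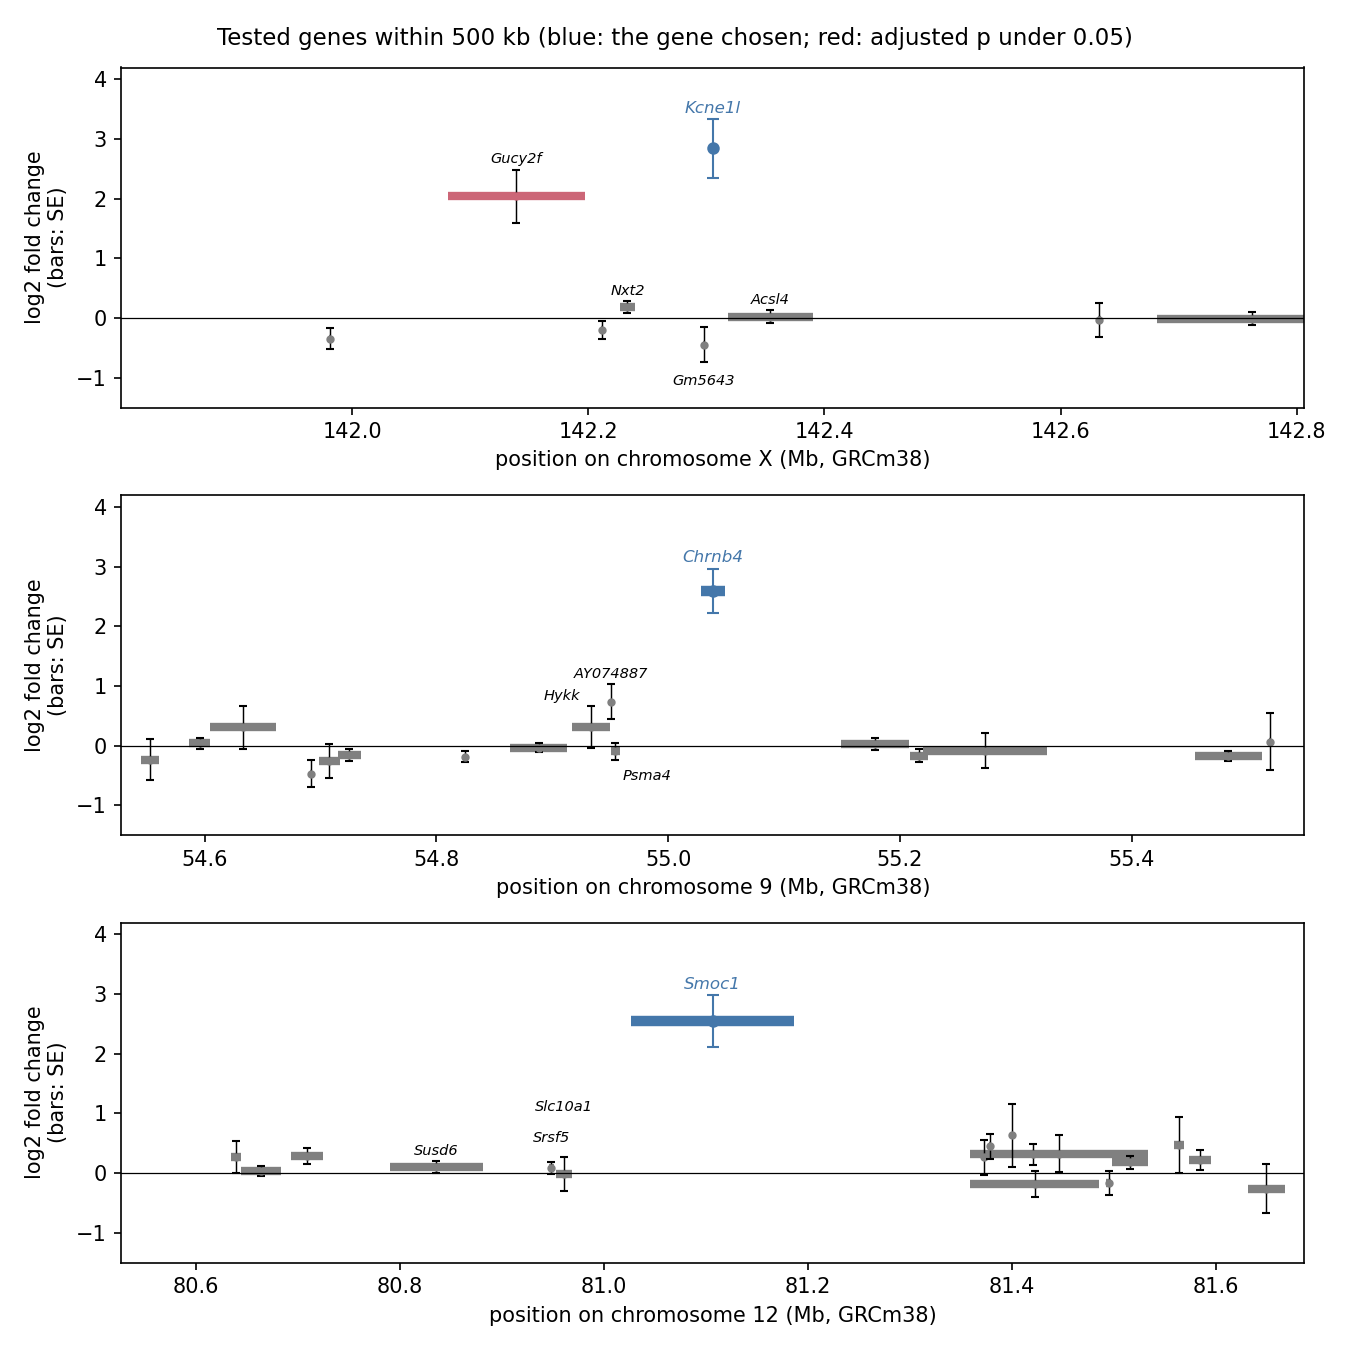
Log2 fold change (vertical axis; bars are SE) of tested genes within 500 kb of Kcne1l, Chrnb4 and Smoc1 against position in Mb on GRCm38, with the chosen gene in blue and genes at an adjusted p under 0.05 in red. Gucy2f at 2.04 is the 1 neighbour in red, and the neighbours of Chrnb4 and Smoc1 lie between −0.47 and 0.73.

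RefSeq promoter windows of 300 bases (GRCm38.p6) matched 2 of the 3 genes, Kcne1l at chrX:142306149-142306448 and Chrnb4 at chr9:55048495-55048794, both on the minus strand. Smoc1 had no entry. Since these genes share the direction of their difference, the windows were searched on both strands for TGCTGAC, a core of Maf recognition elements, for the AP-1 and CREB cores TGACTCA and TGACGTCA, and for the GC box GGGCGG. The first 3 were in neither window. Among all 32851 windows they were in 4.67%, 5.20% and 1.79%. A GC box was found once, in that of Kcne1l, and in 35.7% of all windows. The windows had 69.7% and 63.0% G and C, against a median of 52.7% over all windows. The 154 bases of the Kcne1l window that lie before its annotated exon, chrX:142306295-142306448 on the minus strand, are shown for the position of that match, which is in capitals (the GC box read on the opposite strand). Of the Chrnb4 window, 285 bases lie in annotated exons. No match says only that these letters are not in this window.
Kcne1l: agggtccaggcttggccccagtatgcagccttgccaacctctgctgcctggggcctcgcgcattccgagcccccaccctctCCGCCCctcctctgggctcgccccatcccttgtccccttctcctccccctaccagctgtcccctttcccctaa

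The genes most like each of the 3 over the 8 mice were found by the root mean square difference of log2 CPM, each gene centred on its control mean, among 17484 tested genes with a mean of at least 1 CPM. For Kcne1l the closest were Eda2r, a receptor of the TNF family, at 0.631, then Cfi, Cpb2, Hacl1 and Esr1 at up to 0.784. Chrnb4 was closest to Gm42047 at 0.544, Dio3os, Mbl1, Gm28023 and Lrrc15, the last at 0.671. Smoc1 was closest to Esr1, the estrogen receptor alpha gene, at 0.720, then Eda2r, Clec18a, Cpb2 and the betaine transporter gene Slc6a12 at 0.856. Eda2r, Cpb2 and Esr1 were thus among the closest to both Kcne1l and Smoc1. With genes centred on their control means, this measure reflects the size of the rise as well as the spread among mice. The 3 genes were chosen by that rise, so genes with a rise of like size come out close. No variation together among mice is read from it. Among the chosen genes themselves, Chrnb4 was the 6th closest gene to Smoc1, at 0.863, and Kcne1l and Smoc1 were farther apart at 1.07.

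Of these closest genes, Eda2r had 2.19, 3.60, 2.77 and 4.71 CPM in mutant mice and 0.589, 1.22, 0.406 and 0.469 CPM in controls. Its log2 fold change was 2.27 (SE 0.37). Esr1 had 64.2, 67.6, 43.3 and 163 CPM in mutants and 14.5, 15.1, 22.6 and 25.3 CPM in controls, with mutant mouse 4 highest, as for Kcne1l. Hacl1, which encodes a 2-hydroxyacyl-CoA lyase, shares 33.3% of its exonic bases with other genes, and reads on shared exons were not counted. Hacl1, Esr1, Gm28023, Lrrc15 and Clec18a were not called by the quasi-likelihood test (adjusted p 0.0617 to 0.0964), but all 5 were called by DESeq2 and by the exact test.

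Markers of kidney and other cell types were read in the same libraries. The labels give the tissue as whole kidney, though their extraction text speaks of liver. Kidney genes were abundant in all 8 libraries: the proximal tubule list summed to 9280 to 13190 CPM in mutants and 15610 to 17780 CPM in controls, and thick limb genes to 4034 to 7017 CPM over all mice. All 8 genes of the proximal tubule list had log2 fold changes below 0 (median −0.929), and 4 were called lower (Slc5a2, Slc34a1, Slc4a4 and Slc5a12). Slc13a3, at −0.87 (SE 0.21) with mutants wholly below controls, was called lower by DESeq2 and the exact test but not by the quasi-likelihood test (adjusted p = 0.0763). Lrp2, Cubn and Hnf4a were not called by any of the 4 tests. Slc34a1, the phosphate transporter gene and the list's most abundant per kb, had a log2 fold change of −1.23 (SE 0.12; adjusted p = 2.17e-04, edgeR quasi-likelihood). Whether this fall has a part in the levels of Kcne1l, Chrnb4 and Smoc1 was not tested.

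Chrnb4 is known from adrenal medulla and autonomic ganglia, tissues next to the kidney, so their markers were read mouse by mouse. The chromaffin list summed to 33.8, 61.2, 51.7 and 50.6 CPM in mutants and 67.9, 68.3, 54.8 and 60.0 CPM in controls, most of it Ddc, which the kidney tubule also expresses and which was called with Xist as a covariate and with only the mice of high Xist, but by none of the 4 tests on all mice. The defining markers were at or near 0: Dbh had 0 counts in all 8 mice and Th had 1. Of the peripheral neuron list, 2 of 8 genes were tested and 0 called, and it summed to 3.05 to 6.17 CPM in mutants and 2.52 to 4.56 CPM in controls, with Uchl1 the most abundant per kb. Neither list was higher in mutants beyond the range of controls, apart from mutant mouse 4 at 6.17 CPM for neuron genes. Adrenal cortex genes summed to 5.65 to 6.82 CPM in mutants and 6.80 to 9.34 CPM in controls, with Cyp11b1 at 0 counts.

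Among the other kidney lists, 0 of 5 late proximal tubule, 0 of 5 thick limb, 0 of 4 distal convoluted tubule, 0 of 7 principal cell, 0 of 6 intercalated cell and 0 of 7 podocyte genes tested were called. DESeq2 called 1 of these, Pvalb, which was also called with Xist as a covariate. The sum of the late proximal tubule genes differed with Xist, though not every gene did. It was 800.7 CPM in mutant mouse 1 and 960.6 and 847.0 CPM in control mice 3 and 4, against 359 to 425 CPM in the 5 mice of high Xist, and Slc7a13 had 204 to 324 CPM against 0.411 to 1.08 CPM. Slc22a7, the list's most abundant gene per kb, overlapped between these mice, at 71.3 to 154 and 97.4 to 187 CPM. With Xist as a covariate, Slc7a13 and Slc5a8 were called, and Slc5a8 also with only the mice of high Xist. Of 7 endothelial genes, Kdr, a VEGF receptor gene, was lower at −0.37 (SE 0.09; adjusted p = 0.0450, edgeR quasi-likelihood), a call that the exact test and limma-trend did not make. Of 9 tested genes of tubular injury, Krt8, a keratin gene, was lower at −0.72 (SE 0.11). Spp1, the list's most abundant gene per kb, was called with Xist as a covariate and with only the mice of high Xist. The injury list summed to 688.5, 985.8, 1044 and 935.6 CPM in mutant mice 1 to 4. Control mice 1 to 4 had sums of 1376, 1361, 928.9 and 793.7 CPM. The 6 mural, 6 fibroblast, 6 macrophage and 5 urothelium genes gave 0 calls by all 4 tests, as did the single tested genes of lymphocytes and skeletal muscle and the 2 of Schwann cells, while no adipocyte gene was tested. The adipocyte list summed to 41.0 CPM in control mouse 3 and 6.66 CPM in mutant mouse 4. In the other mice that sum was 0.0586 to 1.07 CPM. Hepatocyte genes, 0 of 5 called by the quasi-likelihood test and limma-trend, 1 by DESeq2 and 2 by the exact test, moved with Xist and with genotype. Their sum was 1402 CPM in mutant mouse 1 and 439.5 and 617.5 CPM in control mice 3 and 4, all of low Xist. In the mice of high Xist it was 152, 151 and 147 CPM in mutants and 61.5 and 70.5 CPM in controls, with 3 of 5 genes called (Alb, Serpina1a and Cyp2e1), and with Xist as a covariate 2 were called (Alb and Cyp2e1). Most of the sum came from Cyp2e1, while Alb, a defining marker of hepatocytes, was at 0.661 to 2.57 CPM in mutants and 2.69 to 8.85 CPM in controls. What part cell composition has in the levels of Kcne1l, Chrnb4 and Smoc1 was not tested.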

How the data were processed

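The deposited values are raw counts per gene, made by the authors from exon overlaps in featureCounts (2.0.1 per the file header) with genes of the Ensembl 102 annotation of GRCm38, without using strand, with each read of a pair counted singly and reads on exons of several genes left out. Unused columns of per-sample values: 0. The 3 genes and the 10 pathway and 21 cell type lists were chosen with earlier results of these data known. Of 55367 genes, 20149 passed filterByExpr and were fitted in edgeR 4.0.16 (R 4.3.3) with TMM factors and robust quasi-likelihood F tests, and p values were adjusted by the Benjamini-Hochberg method over all of them. Each SE was derived from the log2 fold change and the F statistic (the size of the change over the root of F). The biological coefficient of variation was 0.203. Totals of 16649129 to 22990257 counts per mouse set the precision. Alternatives tried were DESeq2 1.42.0, the exact test, limma-trend 3.58.1 after quantile normalization, upper-quartile or RLE factors, other filters, the replicate number as a block, Xist as a covariate, only the 5 mice with high Xist, and each mouse left out. Tables were handled in Python 3.11.15 with pandas 2.3.3 and drawn with matplotlib 3.10.9.

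Genes were named by a rule: Maf, the 3 genes, called genes and the 2 most abundant per kb in each pathway list, the 3 nearest tested genes and called genes within 500 kb, the 5 genes most alike over 8 mice with at least 1 CPM (log2 with a prior count of 2), the genes ranked just before and after, and markers where a list is described. Others were named after their values were seen. Results for some listed genes are not reported here.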

Additional observations from a re-analysis of the deposited data

Results flagged for a closer look

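In 5 of the 98 groups of 4 mice examined, 1 mouse lay far from the other 3, with a gap to its nearest neighbour, as a share of the group's range, past Dixon's 95% limit. By chance this happens in about 1 in 20 groups, or about 4.9 here. Prima1 in Maf flox/flox was 5.49, 5.64, 5.79 and 3.40 CPM (share 0.878, mouse 4 low). Bmpr1a in Maf conditional KO was 77.7, 67.0, 68.6 and 67.6 CPM (0.848, mouse 1 high). Cfi, the complement factor I gene, was 15.7, 26.8, 25.8 and 26.6 CPM in Maf conditional KO (0.912, mouse 1 low). Hacl1 was 21.2, 53.5, 50.4 and 54.7 CPM in Maf conditional KO (0.869, mouse 1 low). Saa4 in Maf flox/flox was 0, 0, 0 and 0.411 CPM (1.0, mouse 4 high). Mutant mouse 1 is the outlying mouse in 3 of the 5.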

How the results depend on the processing

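The 436 genes called became 887 with DESeq2, 676 with the exact test, 1506 with Xist as a covariate and 789 with only the 5 mice of high Xist, and 239 to 452 with 1 mouse left out. The 3 calls in the pathway lists became 8 with the Xist covariate and 1 to 4 with 1 mouse left out. The 1 called neighbour, Gucy2f, became 0 with limma-trend and 0 with at least 10 counts in every mouse, where Gucy2f was not tested, 2 with the Xist covariate, 2 with only high Xist, and 0 to 1 with 1 mouse left out. The cause of these shifts was not tested. Kcne1l and Chrnb4 have no value under the filter of 10 counts. Log2 fold changes with 1 mouse left out were 2.42 to 3.14 for Kcne1l, 2.34 to 2.84 for Chrnb4 and 2.31 to 2.78 for Smoc1. Of 821 fits of 46 named genes, 753 kept their side of the threshold, 39 lost it, 29 gained it and 0 reversed.

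With the replicate block, 129 genes were called (18 higher, 111 lower), 1 in the pathway lists and 0 among the neighbours. Maf, the gene deleted, was not called in that fit (adjusted p = 0.0516, edgeR quasi-likelihood), while Chrna4 was (adjusted p = 0.00334). Same-numbered mice deviated from their group means with correlations of −0.373, 0.152, −0.110 and −0.331. Mice of different numbers were not compared in this way, and of the same-numbered mice only those numbered 2 were alike in Xist. Whether same-numbered mice have more in common than the number was therefore not tested.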
